A study of Rattus norvegicus with 6 samples.

Results

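Long non-coding RNAs (lncRNAs) of the adrenal gland were compared with those of the hypothalamus in Brown Norway (BN) rats, an inbred strain. The comparison took 2 of the 6 tissue samples of the series, by their tissue labels, and 4 of the 12 columns of expression values. Both samples came from male rats aged 6 weeks, and the labels give no treatment, genotype change or number of animals for either. Each tissue is 1 sample with 2 columns, called column 1 and column 2, and a pair of values for a tissue gives column 1 first. Whether the columns are separate animals is not stated in the labels. The p-values below therefore reflect column-to-column spread alone, and that spread may be technical. The code of the hypothalamus columns was matched to its tissue by elimination, as the code left over once the other 5 tissues had theirs. Levels are FPKM, fragments scaled by transcript length and library total. All 2455 transcripts with values were considered, at 1646 loci.

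The adrenal gland has a cortex that makes steroid hormones from cholesterol and a medulla of chromaffin cells that release catecholamines. The hypothalamus is a brain region of neurons and glia that governs the pituitary and, through it, steroid output of the adrenal cortex. lncRNAs are transcribed RNAs with no long open reading frame, and many are present in few tissues. Some lncRNA loci contain a microRNA, a short RNA cut from a hairpin in the host transcript that lowers the output of messenger RNAs paired with its seed.

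Of the transcripts in the table, 81 carried the name of a microRNA gene, 26 names in all, and 18 transcripts with 13 names were abundant enough to test. Their mature microRNAs are shown because some of these transcripts were called as differing between the tissues. The sequences are those of RefSeq (assembly GRCr8), where 23 of the 26 names were found. They run 5′ to 3′ with the seed, bases 2 to 8, in capitals. The first 4 belong to names with a transcript higher in adrenal gland and the next 4 to names with a transcript higher in hypothalamus, while the transcript at the gene of rno-miR-129-5p was higher in both hypothalamus columns but missed the threshold.
rno-miR-675-5p: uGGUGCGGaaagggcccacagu
rno-miR-675-3p: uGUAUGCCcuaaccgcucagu
rno-let-7c-5p: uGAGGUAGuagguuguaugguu
rno-miR-223-3p: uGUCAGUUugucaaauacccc
rno-miR-7a-5p: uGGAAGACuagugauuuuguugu
rno-miR-384-5p: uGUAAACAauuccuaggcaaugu
rno-miR-325-3p: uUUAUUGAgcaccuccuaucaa
rno-miR-29b-3p: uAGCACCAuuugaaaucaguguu
rno-miR-129-5p: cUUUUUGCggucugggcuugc

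No seed was shared among the 11 tested names found in RefSeq. Over all names found in RefSeq, 3 seeds were shared by several names. GAGGUAG belonged to Mirlet7a-1, Mirlet7c-1 and Mirlet7c-2, and AGCACCA to Mir29b-1 and Mir29b-2. The table measures host or overlapping transcripts, not the mature microRNAs.

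The steps between low FPKM values implied depths of 13530000 and 17530000 fragments in adrenal gland and of 27540000 and 31910000 in hypothalamus, so low values are more precise in hypothalamus. A count of 0 allows up to 3 fragments, which per 1 kb of transcript equals an FPKM of 0.222 and 0.171 in adrenal gland and of 0.109 and 0.094 in hypothalamus. Such limits hold for counting error alone. No counts were given, and a listed 0 may also mark an estimate that failed. Of the 2455 transcripts, 853 and 741 were listed at 0 in adrenal gland, against 782 and 779 in hypothalamus. The sources used here do not say if counting used the strand, and the level of a transcript that overlaps a gene, or lies antisense to one, may include fragments of that gene. Positions are rn5 coordinates of the locus, as deposited.

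More lncRNA transcripts were higher in adrenal gland than in hypothalamus on the deposited scale, and the balance turned when the columns were rescaled. At a mean FPKM of 1 or more, 404 transcripts were detected in adrenal gland and 243 in hypothalamus, and 127 in both. The 520 transcripts detected in either were tested with limma on log2(FPKM + 0.1), as adrenal gland minus hypothalamus. At a Benjamini-Hochberg adjusted p below 0.05, 262 (50.4%) were higher in adrenal gland and 102 (19.6%) were higher in hypothalamus, together 364 (70.0%). At an unadjusted p below 0.05 there were 385. The median log2 difference was 1.37 over all tested transcripts, 2.55 over those called higher in adrenal gland and -2.74 over those called higher in hypothalamus. With 2 columns against 2, an exact permutation test of a single transcript cannot give a p below 0.333, so each call rests on the spread pooled over transcripts. Both adrenal gland columns lay above both hypothalamus columns for 336 transcripts (64.6%), and both hypothalamus columns lay above for 123 (23.7%). Asking also for a 4-fold difference between the means left 194 (37.3%) higher in adrenal gland and 86 (16.5%) higher in hypothalamus.

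FPKM values in general were higher in the adrenal gland columns, which also had the lower implied depths. Over the 1075 transcripts above 0 in all 4 columns, the medians were 0.570 and 0.486 FPKM in adrenal gland, against 0.300 and 0.266 in hypothalamus, a shift of 0.896 on the log2 scale. With the columns rescaled to the same median, 138 of 484 transcripts (28.5%) were higher in adrenal gland and 163 (33.7%) were higher in hypothalamus. The share of calls that favoured adrenal gland was thus 72.0% as deposited and 45.8% after rescaling. All 102 hypothalamus calls and 138 of the 262 adrenal gland calls held under both, and no transcript was called in opposite directions. Rescaling moved the differences toward hypothalamus, so hypothalamus calls could hardly be lost by it. Rescaling by the median ratio of 90 transcripts at FPKM 1 or more in all 4 columns gave a shift of 1.03 and calls of 124 and 181. The 5 most abundant transcripts held 57.3% of the FPKM in adrenal gland and 65.7% in hypothalamus. The part of these transcripts in the shift was not tested. The column medians fell in the order in which the implied depths rose, from 13530000 fragments in adrenal gland column 1 to 31910000 in hypothalamus column 2. The part of depth in the shift was not tested either. Log2 differences below are as deposited, and a value marked rescaled comes from the columns rescaled to the same median.

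**Figure D1:**
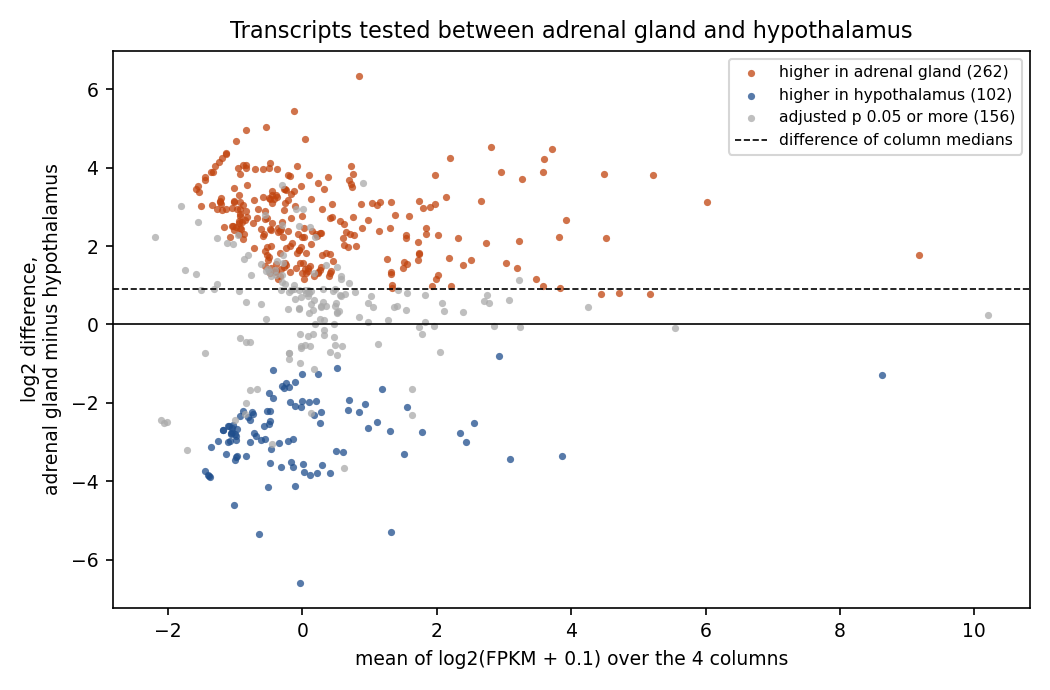
Each point is 1 of the 520 tested transcripts, with its mean level over the 4 columns on the horizontal axis and the log2 difference, adrenal gland minus hypothalamus, on the vertical axis. The 262 transcripts higher in adrenal gland and the 102 higher in hypothalamus are coloured, and the dashed line marks the shift of 0.896 between the column medians.

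The number of calls depended on each of the 4 columns. Without adrenal gland column 1, 14 transcripts were called higher in adrenal gland and 1 higher in hypothalamus, and without adrenal gland column 2 these were 151 and 98. Without hypothalamus column 1 there were 27 and 12, and without hypothalamus column 2 there were 17 and 8. In these fits the lone column is assumed to vary like those of the other tissue, and fewer columns are left to estimate the spread. All 262 and 102 calls of the full fit kept the direction of their difference in each of the 4 fits. Where the columns of the tissues do not overlap, leaving 1 out cannot turn the direction, so this adds no support for those calls. The median log2 difference over the tested transcripts was 1.23 to 1.53. A lost call is thus not a change of direction. Below, 41 called transcripts are named. Most were picked by a fixed rule, and some only for a microRNA name, added after their values were seen. Of the 41, only TCONS_00111811 kept its call in each of the 4 fits. With no FPKM minimum, 0 of the 41 kept their call. In that fit limma called 0 transcripts in all at an adjusted p below 0.05, with 737 at an unadjusted p below 0.05. Summed per locus, 253 of 491 loci (51.5%) were higher in adrenal gland and 107 (21.8%) were higher in hypothalamus. After rescaling these were 155 and 153. Leaving out 1 column gave 38 to 216 loci higher in adrenal gland, the lowest without hypothalamus column 2. It gave 6 to 104 loci higher in hypothalamus, also lowest without that column.

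The columns of a tissue were not equally distinct from the other tissue. Across the 520 transcripts on log2(FPKM + 0.1), Pearson's r was 0.806 between the adrenal gland columns and 0.843 between the hypothalamus columns. It was 0.401 between adrenal gland column 2 and hypothalamus column 1, against 0.094 between adrenal gland column 1 and hypothalamus column 2. These are correlations across transcripts, which are not replicates, and columns of 1 table share its transcript models.

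A set of 91 transcripts was at FPKM 1 or more in hypothalamus and at least 5-fold above each of the 4 other tissues (left ventricle, liver, outer medulla and cortex, a label that names no organ). It stood at a median of 4.02% of its hypothalamus level in adrenal gland column 1 (quartiles 0 and 20.1%) and at 21.1% in adrenal gland column 2 (quartiles 13.6 and 32.6%). Column 2 was the higher one for 66 of them and column 1 for 20. Of the 129 transcripts chosen in the same way for adrenal gland, the median level in hypothalamus column 1 was 12.1% of that in adrenal gland (quartiles 7.83 and 24.7%) and in hypothalamus column 2 it was 5.50% (quartiles 2.51 and 16.1%). Here column 1 was higher for 84 and column 2 for 40. Left without the 20 transcripts that belonged to both sets, the medians were 1.71 and 18.8% in adrenal gland, against 11.1 and 4.83% in hypothalamus. RNA of the other tissue and expression in the tissue itself cannot be told apart from these values. Adrenal gland column 1 and hypothalamus column 2 were the columns with the wider contrast. In a bulk sample, fewer cells of a type and less RNA per cell cannot be told apart either.

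**Figure D2:**
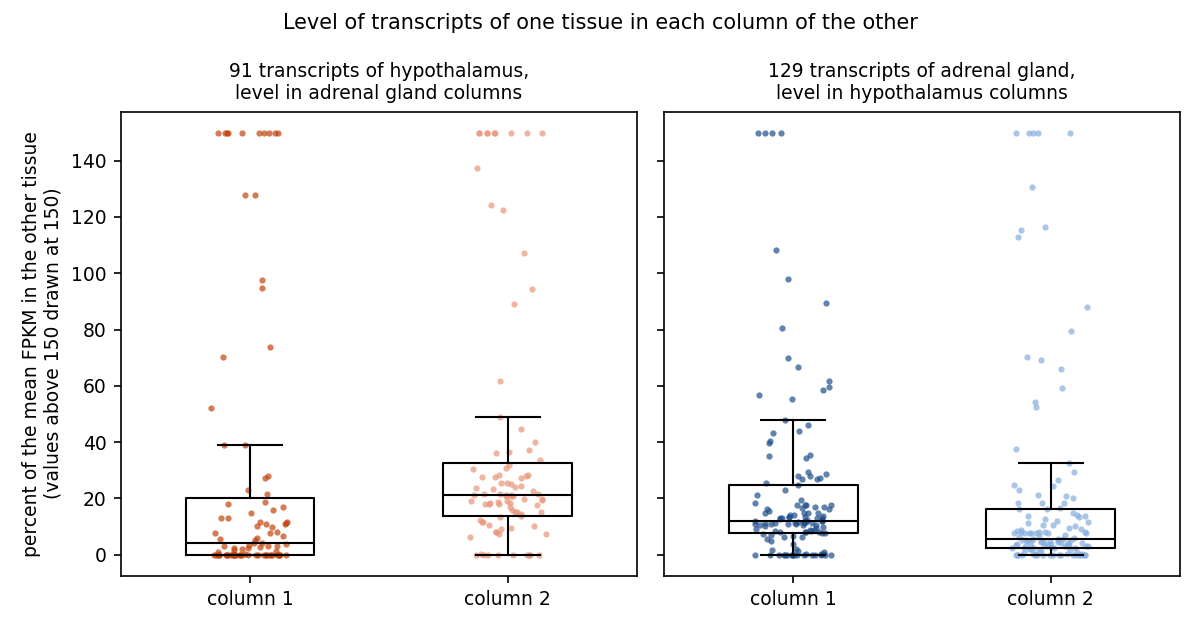
Each point is a transcript of 1 tissue, and its height is its level in a column of the other tissue as a percent of its own tissue's mean FPKM, with values above 150 drawn at 150. The left panel holds 91 hypothalamus transcripts in the adrenal gland columns (medians 4.02 and 21.1%), the right panel 129 adrenal gland transcripts in the hypothalamus columns (medians 12.1 and 5.50%), with boxes from quartile to quartile and whiskers to the last value within 1.5 box lengths.

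The marker genes of the tissues were scarce in this table of selected lncRNAs. Of 25 steroid synthesis genes only Cyp11b3 was found, and its single transcript was called higher in adrenal gland. From the list of 39 general neuron genes Sox2 and Dlx6 were found, though Sox2 is known from neural stem and progenitor cells. None of 17 chromaffin genes, 31 genes of hypothalamic neurons, 18 glial genes, 52 HOX genes or 48 genes of the imprinted Dlk1-Dio3 domain was found by symbol. That last list did not hold Mir666, Mir667 and rno-mir-679, microRNAs of the same domain, which the table does name at a chromosome 6 locus (143006931 to 143062780). The labels can thus be checked on few transcripts. The summed level of the steroid list was 60.5 and 44.4 FPKM in adrenal gland, against 5.89 and 1.21 in hypothalamus. For the general neuron list the sums were 0 and 1.13 in adrenal gland, against 5.81 and 7.10 in hypothalamus. Most of these hypothalamus sums came from Sox2, as the Dlx6 transcript gave 0.307 and 0.538. Each sum was highest in the tissue that its list is named for, but the lists were chosen with earlier results of these data known. The sums are therefore no independent check of the labels. Within the other tissue the steroid sum was higher in hypothalamus column 1, and the neuron sum in adrenal gland column 2.

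TCONS_00098844, 260 bases long, overlaps Cyp11b3, a rat gene of the steroid 11-beta-hydroxylase family (chromosome 7, 115976559 to 116157978). It had 60.5 and 44.4 FPKM in adrenal gland, against 5.89 and 1.21 in hypothalamus. The groups did not overlap, and the hypothalamus columns differed from each other more than the adrenal gland columns did. The log2 difference was 4.21 (SE 0.76, adjusted p = 0.0121, limma) and 3.34 rescaled. The call was lost without adrenal gland column 1 or 2 or hypothalamus column 2, with log2 differences of 3.12 to 5.31 over the 4 fits. Cyp11b genes are near-identical copies of each other, so how fragments were divided among them is uncertain.

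That transcript was part of a run of 6 neighbouring loci on chromosome 7 (115976559 to 116411778) that were each called higher in adrenal gland. Of all 491 tested loci, 51.5% were called in that direction. Summed over the run, levels were 138.8 and 107.2 FPKM in adrenal gland, against 13.0 and 3.69 in hypothalamus. The log2 differences of the loci ran from 3.19 to 4.51, and all 6 calls held after rescaling. TCONS_00098852, in the same interval as the Cyp11b3 transcript and antisense to an exon of Timm8a1 by its assignment, had 51.4 and 41.6 FPKM in adrenal gland, against 4.85 and 1.86 in hypothalamus. TCONS_00095496, antisense to ENSRNOG00000047072 (116171564 to 116196788), had 3.09 and 1.96 in adrenal gland, while its hypothalamus columns gave 0.000159 and a listed 0 (adjusted p = 0.00826). Further along, TCONS_00095514 lay antisense to Ly6i, a gene of the Ly6 family of surface proteins, with 3.47 and 2.94 in adrenal gland, against 0.416 and 0.151 in hypothalamus. Except for TCONS_00095496, these members were singled out after their values were seen, because they neighbour Cyp11b3.

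Of the 10 largest called differences in favour of adrenal gland, 6 came from transcripts with no reference gene, as did 336 of all 520 transcripts tested. TCONS_00074459 (chromosome 4, 61625469 to 61626957), 325 bases long, had 17.0 and 15.04 FPKM in adrenal gland, while in hypothalamus it was listed at 0 in column 1 and had 0.295 in column 2. Its log2 difference of 6.34 (SE 0.71, adjusted p = 0.00826; 5.69 rescaled) was the largest of the comparison in this direction. It is 1 of 2 transcripts of its locus, so its level depends on how shared fragments were divided. The locus sum was 50.1 and 41.4 in adrenal gland, against 3.48 and 1.33 in hypothalamus, a smaller log2 difference of 4.34 (3.56 rescaled). TCONS_00004959 (chromosome 1, 210280454 to 210396919) had 6.31 and 5.59 in adrenal gland, against 0.0883 and 0.00117 in hypothalamus, a log2 difference of 5.45 (SE 0.46, adjusted p = 0.00745; 4.92 rescaled). Both transcripts were far below 1 FPKM in both hypothalamus columns. The call of TCONS_00074459 was lost without either adrenal gland column, and that of TCONS_00004959 without adrenal gland column 1, with log2 differences that stayed above 5 in all 4 fits of each.

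Abundant adrenal gland transcripts also stood well apart. TCONS_00096639 (chromosome 7, 9865669 to 10274413), only 184 bases long, had 72.7 and 52.7 FPKM in adrenal gland, against 3.38 and 2.12 in hypothalamus (log2 difference 4.48, SE 0.36, adjusted p = 0.00745; 3.60 rescaled). TCONS_00081178 (chromosome 5, 30050648 to 30052169), 205 bases long, had 113.9 and 171.3 in adrenal gland, against 14.8 and 6.47 in hypothalamus (log2 difference 3.82, SE 0.48, adjusted p = 0.00826; 2.93 rescaled). Neither pair of groups overlapped. FPKM of transcripts about as short as a fragment depend strongly on the fragment length used in the estimate. The call of TCONS_00096639 was lost without adrenal gland column 1, and that of TCONS_00081178 without adrenal gland column 1 or 2 or hypothalamus column 2.

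TCONS_00107388 shares a splice junction with Myl1, which encodes a myosin light chain of skeletal muscle (chromosome 9, 73349346 to 73369877). It had 34.7 and 32.4 FPKM in adrenal gland, against 1.60 and 1.16 in hypothalamus, a log2 difference of 4.52 (SE 0.30, adjusted p = 0.00745; 3.66 rescaled), lost only without adrenal gland column 1 among the fits with 1 column left out. It was not specific to adrenal gland, since it averaged 34.3 FPKM in the sample labelled cortex. Of 29 marker genes of blood, vessel, fat, muscle, pituitary and kidney, the only other one found was Slc12a1, a transporter of the kidney, whose transcript had 1.501 and 0.146 in adrenal gland and was listed at 0 in both hypothalamus columns. Whether muscle or other cells contributed to the Myl1 level was not tested.

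TCONS_00029307 shares a splice junction with Creg1, which encodes a secreted glycoprotein also found in lysosomes (chromosome 13, 88849693 to 88864850). Its level was 3.89 and 3.74 FPKM in adrenal gland, while in hypothalamus it was 0.0435 in column 1 and listed at 0 in column 2 (log2 difference 5.03, SE 0.43, adjusted p = 0.00745; 4.54 rescaled). It was higher still in liver, with a mean of 6.95. TCONS_00065527 lies antisense to an exon of Zeb2, which encodes a zinc finger repressor (chromosome 3, 35030869 to 35200279). It had 5.33 and 1.69 in adrenal gland and was listed at 0 in both hypothalamus columns (adjusted p = 0.00847). TCONS_00106180 (chromosome 9, 7646636 to 7862834) reached 2.56 and 1.498 in adrenal gland. TCONS_00111024 (chromosome X, 36777265 to 36801371) reached 2.19 and 1.74 there. Both were listed at 0 in both hypothalamus columns as well. TCONS_00111024 was higher still in liver, at a mean of 6.80. The Creg1 call was lost without adrenal gland column 1 or hypothalamus column 2, and the other 3 without either hypothalamus column.

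TCONS_00026169 (chromosome 12, 38711799 to 38713881) shows how far the adrenal gland columns can differ. It had 1.49 FPKM in column 1 and 17.6 in column 2, against 0.129 and 0.0746 in hypothalamus. The log2 difference was 4.73 (SE 1.18, adjusted p = 0.0210). Rescaled it was 4.07 and no longer passed (adjusted p = 0.0572, within a range of 3.5e-11 to 0.169 over all alternatives). Without adrenal gland column 2 the difference was 2.99 and without column 1 it was 6.47, and the call was lost without adrenal gland column 1 or either hypothalamus column.

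**Figure D3:**
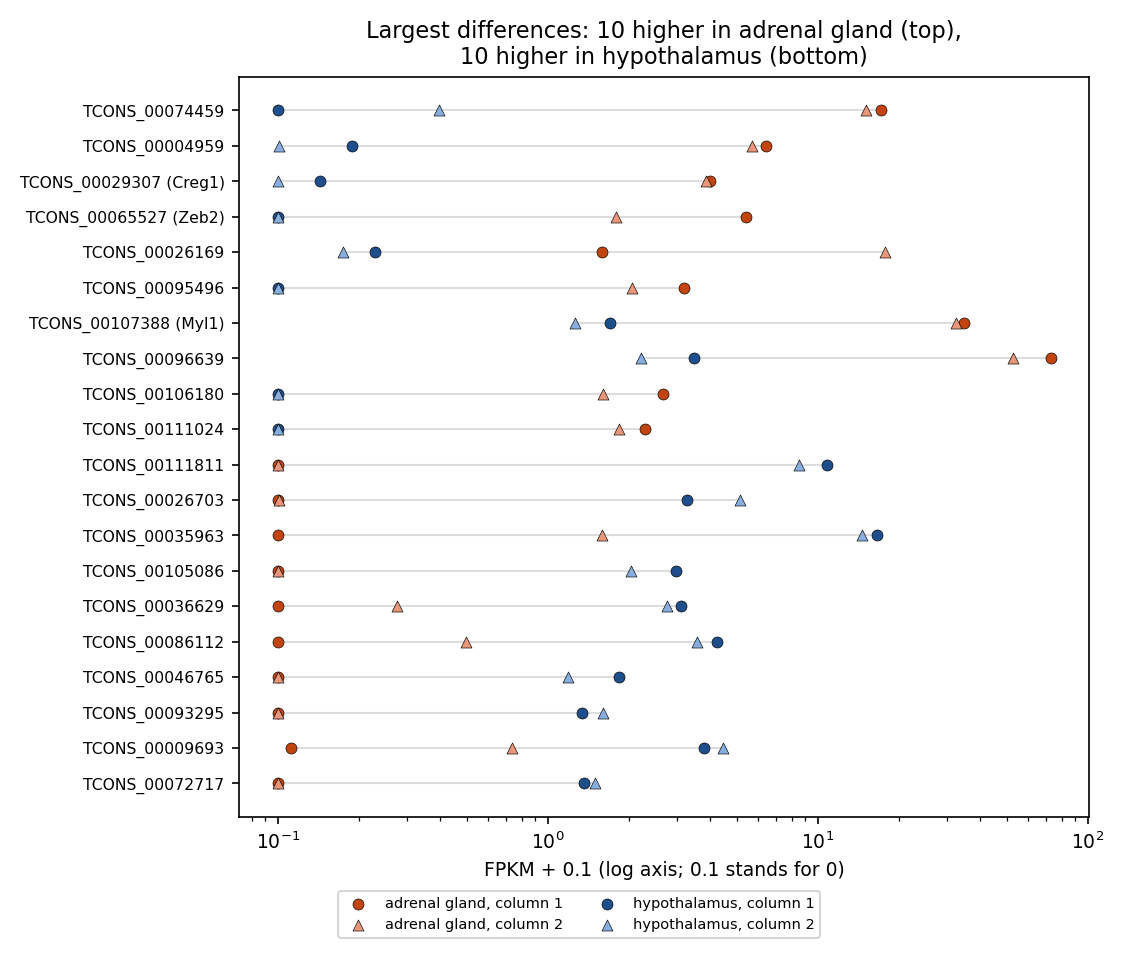
FPKM + 0.1 in each of the 4 columns, on a log axis, for the 10 largest called differences higher in adrenal gland (top) and the 10 higher in hypothalamus (bottom), with 1 transcript per locus. The rows were chosen among transcripts whose adrenal gland and hypothalamus columns do not overlap, and the symbols at 0.1 are values listed at or near 0.

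In hypothalamus the largest difference was that of TCONS_00111811 (chromosome X, 107512729 to 107513812), 413 bases long with no reference gene. It was listed at 0 in both adrenal gland columns and had 10.7 and 8.45 FPKM in hypothalamus (adjusted p = 0.00626). Among the named transcripts it was the only one whose call held without any 1 of the 4 columns. TCONS_00105086 (chromosome 8, 93958086 to 94074449) was likewise listed at 0 in both adrenal gland columns, against 2.88 and 1.93 in hypothalamus. TCONS_00046765 (chromosome 17, 52299606 to 52304082) was listed at 0 in adrenal gland, against 1.74 and 1.09, and TCONS_00072717 (chromosome 3, 160544184 to 160547954) against 1.26 and 1.39. Their adjusted p-values were 0.00826, 0.0118 and 0.0117. TCONS_00046765 was higher still in left ventricle, at a mean of 5.02. Among the fits with 1 column left out, each of these calls was lost only without adrenal gland column 1.

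Other transcripts higher in hypothalamus had a trace in adrenal gland column 2. TCONS_00035963 (chromosome 15, 21891405 to 21905322) was listed at 0 in adrenal gland column 1 and had 1.49 FPKM in column 2, against 16.5 and 14.5 in hypothalamus (log2 difference -5.29, SE 1.32, adjusted p = 0.0210; -5.89 rescaled). TCONS_00086112 (chromosome 5, 99146423 to 99464937) was listed at 0 and had 0.396 in adrenal gland, against 4.13 and 3.46 in hypothalamus (-4.12, SE 0.82, adjusted p = 0.0132; -4.69 rescaled). TCONS_00036629, which overlaps ENSRNOG00000050046 (chromosome 15, 51696840 to 51716150), had less than 0.001 and 0.175 in adrenal gland, against 3.004 and 2.67 in hypothalamus (-4.14, SE 0.61, adjusted p = 0.00967; -4.68 rescaled). In each of these the adrenal gland columns lay below both hypothalamus columns, and column 2 was the higher one. The 3 calls were lost without adrenal gland column 1 or either hypothalamus column. Over all 102 transcripts called higher in hypothalamus, adrenal gland column 2 was above column 1 for 82 and below it for 15, at medians of 19.1 and 4.15% of the hypothalamus level. Over the 262 called higher in adrenal gland, hypothalamus column 1 was above column 2 for 178 and below it for 78, at medians of 15.6 and 10.3% of the adrenal gland level.

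TCONS_00026703 (chromosome 12, 52194506 to 52215839), 8744 bases long, was listed at 0 and had 0.000677 FPKM in adrenal gland, against 3.18 and 5.04 in hypothalamus. TCONS_00093295 (chromosome 6, 153309883 to 153312831) had 0.000120 and 0.000114 in adrenal gland, against 1.24 and 1.503 in hypothalamus. Both lacked any adrenal gland level above the limit of a count of 0, and both passed the test (adjusted p = 0.00745 and 0.0115). Among the fits with 1 column left out, both calls were lost only without adrenal gland column 1. TCONS_00026703 is 1 of 4 transcripts of its locus. The sum of that locus was 0 and 1.05 in adrenal gland, against 5.86 and 7.15 in hypothalamus (limma, adjusted p = 0.0168). Its near absence from adrenal gland column 2 thus does not hold for the locus.

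Among the 5 most abundant hypothalamus transcripts, TCONS_00083749 had the largest difference in favour of that tissue. It shares a splice junction with Camk2n1, which encodes an inhibitor of the calcium/calmodulin-dependent protein kinase II of neurons (chromosome 5, 160625418 to 160628579). It had 2.45 and 8.004 FPKM in adrenal gland, against 46.2 and 46.4 in hypothalamus (log2 difference -3.35, SE 0.59, adjusted p = 0.0120; -4.23 rescaled). The call was lost without adrenal gland column 1 or either hypothalamus column, with differences of -4.19 to -2.52. It was also present in the sample labelled cortex, at a mean of 21.4.

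Sox2, a transcription factor of neural stem and progenitor cells, lies within a locus of 4 overlapping transcripts on chromosome 2 (140593626 to 140862826). All 4 were listed at 0 in adrenal gland column 1. The most abundant, TCONS_00055701, was listed at 0 and had 0.891 FPKM in adrenal gland, against 4.04 and 4.41 in hypothalamus (log2 difference -3.78, SE 1.11, adjusted p = 0.0333; -4.37 rescaled). These levels stand for about 0 and 62.3 fragments in adrenal gland, against 444.3 and 562.3 in hypothalamus. Without adrenal gland column 1 the difference was -2.13 and the call was lost, as it was without either hypothalamus column. The locus sum was 0 and 1.10 in adrenal gland, against 5.50 and 6.56 in hypothalamus (adjusted p = 0.0194). TCONS_00077984, antisense to the homeobox gene Dlx6, was too low to test, at 0 and 0.0298 in adrenal gland, against 0.307 and 0.538 in hypothalamus.

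Of the 18 tested transcripts with microRNA names, 3 were higher in adrenal gland and 6 in hypothalamus, against 50.4 and 19.6% of all tested transcripts. Their median log2 difference was -0.73, against 1.37 over all. These transcripts were chosen after their values were seen, and several share a locus. Both directions held names with a known cell type.

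Mir124-2 is a gene of miR-124, an abundant microRNA of neurons. TCONS_00055335, which overlaps it (chromosome 2, 122043167 to 122053306), was listed at 0 and had 0.127 FPKM in adrenal gland, against 1.85 and 1.31 in hypothalamus (log2 difference -3.46, SE 0.64, adjusted p = 0.0126; -3.98 rescaled). The groups did not overlap. TCONS_00071227, at Mir129-2 (chromosome 3, 89753871 to 89839967), was listed at 0 and had 0.357 in adrenal gland, against 1.12 and 1.01 in hypothalamus, and missed the threshold (log2 difference -2.45, SE 0.86, adjusted p = 0.0529; -2.99 rescaled). Rescaled it passed (-2.99, adjusted p = 0.0348, within a range of 6.4e-10 to 0.221 over all alternatives). TCONS_00057341, at Mir137, was not tested as deposited because its hypothalamus mean was below 1, with less than 0.0001 and 0.113 in adrenal gland, against 1.30 and 0.546 in hypothalamus. The summed level of the 5 transcripts found for neuronal microRNA hosts was 0.783 and 1.70 in adrenal gland, against 6.15 and 5.66 in hypothalamus.

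miR-7 is a microRNA of neurons and endocrine cells. TCONS_00003145, at Mir7a-2 (chromosome 1, 141547592 to 141552779), had 0.783 and 0.982 FPKM in adrenal gland, against 1.88 and 2.12 in hypothalamus. It was thus present in both tissues, with a log2 difference of -1.10 (SE 0.34, adjusted p = 0.0381; -1.93 rescaled). It averaged 0.0346 in liver, the highest of the other 4 tissues. The call was lost when any 1 of the 4 columns was left out, with differences of -1.25 to -0.96.

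Mir384 and Mir325 lie in 1 locus of 3 long transcripts on chromosome X (77086036 to 77151776). TCONS_00113683, at Mir384, had 0.555 and 1.17 FPKM in adrenal gland, against 4.71 and 5.28 in hypothalamus (log2 difference -2.48, SE 0.44, adjusted p = 0.0120; -3.30 rescaled). TCONS_00113689, at Mir325, had 0.669 and 1.06 in adrenal gland, against 3.56 and 3.94 in hypothalamus, and TCONS_00113684 had 0.302 and 0.520, against 2.71 and 2.83. All 3 were called, and adrenal gland column 2 was the higher adrenal gland column each time. The locus sum was 1.53 and 2.75 in adrenal gland, against 10.97 and 12.1 in hypothalamus (log2 difference -2.43, adjusted p = 0.005). These 3 calls, and that at Mir124-2, were lost without adrenal gland column 1 or either hypothalamus column.

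The locus of Mir29b-2 (chromosome 13, 118271149 to 118366003) held transcripts that leaned opposite ways. TCONS_00030097 had 0.276 and 0.489 FPKM in adrenal gland, against 1.21 and 1.41 in hypothalamus (log2 difference -1.58, SE 0.43, adjusted p = 0.0262; -2.33 rescaled). TCONS_00030100 had 1.37 and 0.869 in adrenal gland, against 0.539 and 0.434 in hypothalamus (1.03, adjusted p = 0.0782). The sum over its 15 transcripts was 2.01 and 2.151 in adrenal gland, against 1.93 and 2.44 in hypothalamus, which missed the threshold (adjusted p = 0.869).

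In the other direction, Mir675 is made from the first exon of H19, an imprinted lncRNA of growth control that is expressed from the maternal allele. TCONS_00012142, at Mir675 (chromosome 1, 222639220 to 222642054), had 13.3 and 16.1 FPKM in adrenal gland, against 1.14 and 0.774 in hypothalamus (log2 difference 3.82, SE 0.34, adjusted p = 0.00745; 2.97 rescaled). Among the fits with 1 column left out, the call was lost only without adrenal gland column 1. Liver was higher still, at a mean of 69.8. Plagl1, an imprinted zinc finger gene expressed from the paternal allele, shares a splice junction with TCONS_00000085 (chromosome 1, 8856930 to 8897146). That transcript had 6.12 and 5.30 in adrenal gland, against 1.20 and 0.746 in hypothalamus (2.47, SE 0.37, adjusted p = 0.00967; 1.62 rescaled), and its call was lost without adrenal gland column 1 or either hypothalamus column. Mir675 and Plagl1 were the only names found of 23 imprinted genes outside the Dlk1-Dio3 domain.

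Mirlet7c-2 and Mir223 were also called higher in adrenal gland. TCONS_00095929, at the let-7 gene (chromosome 7, 126266040 to 126304355), had 1.22 and 0.914 FPKM in adrenal gland, against 0.118 and 0.0909 in hypothalamus (log2 difference 2.50, SE 0.53, adjusted p = 0.0145). TCONS_00111306, at Mir223, whose microRNA is abundant in myeloid blood cells (chromosome X, 66202569 to 66206734), had 1.11 and 1.02 in adrenal gland, against 0.122 and 0.147 in hypothalamus (2.32, SE 0.48, adjusted p = 0.0145). The Mir223 transcript was not highest in adrenal gland, since its mean was 1.22 in outer medulla, against 1.07 in adrenal gland. Both transcripts fell under the minimum of 1 FPKM once the columns were rescaled and were then not tested. Both calls were lost without adrenal gland column 1 or either hypothalamus column.

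The other 7 tested transcripts with microRNA names, at rno-mir-1839, rno-mir-6326, rno-mir-679 and rno-mir-6331, did not pass the test as deposited, with log2 differences of -1.999 to 1.29.

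Snhg11, a small nucleolar RNA host gene expressed in neurons, was the only name found of 45 well known lncRNAs. TCONS_00072731 shares a splice junction with it (chromosome 3, 160733863 to 160743375). It was listed at 0 and had 1.76 FPKM in adrenal gland, against 3.48 and 8.22 in hypothalamus. Both hypothalamus columns were higher, but the log2 difference of -3.66 (SE 1.45) did not pass (adjusted p = 0.0719; -4.26 rescaled, adjusted p = 0.0660).

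**Figure D4:**
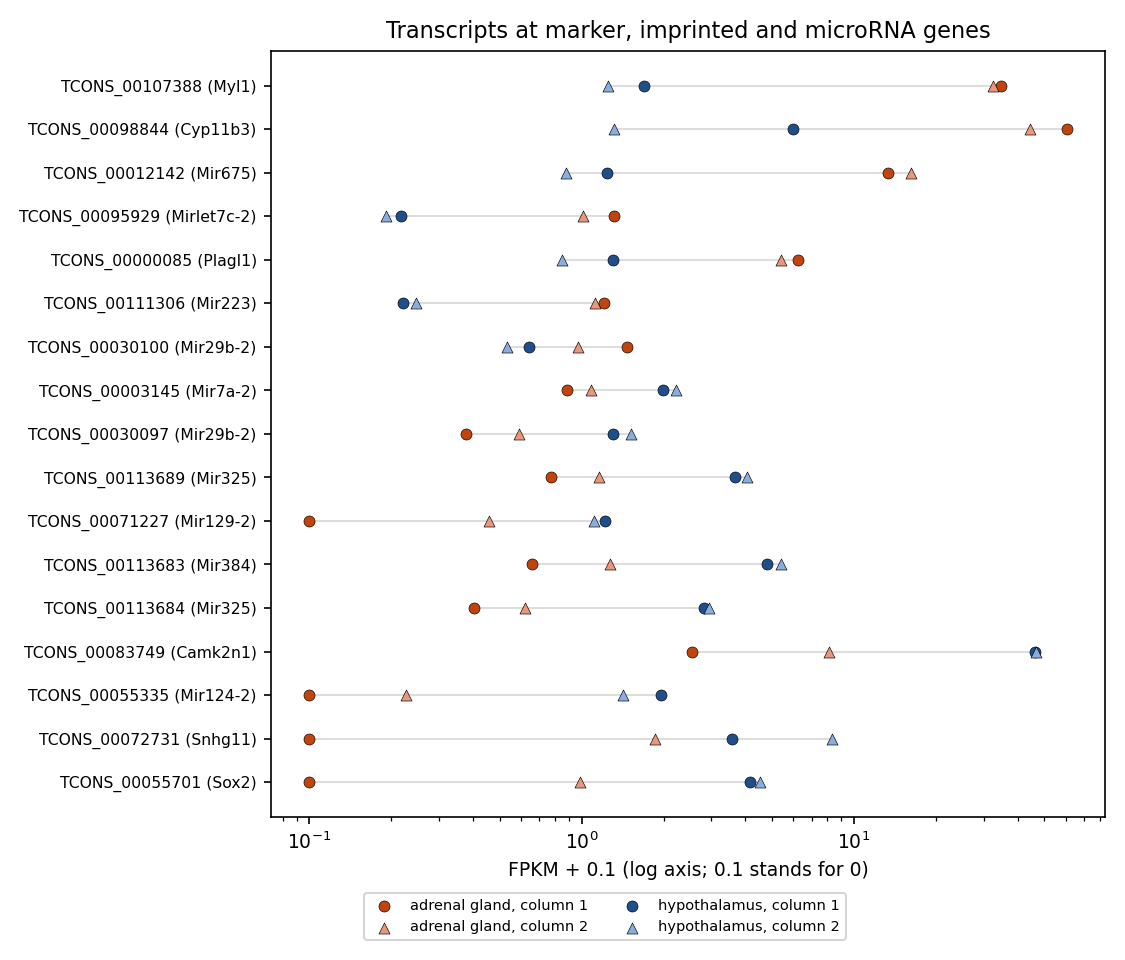
FPKM + 0.1 in each of the 4 columns, on a log axis, for transcripts at marker, imprinted and microRNA genes and at Camk2n1, ordered by their log2 difference from adrenal gland (top) to hypothalamus (bottom). In the rows from Mir7a-2 down, both hypothalamus columns lie above both adrenal gland columns, and in each of those rows adrenal gland column 2 lies above column 1.

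Transcripts were called in both directions in most classes of position relative to reference genes. Over all tested transcripts, 50.4% were called higher in adrenal gland and 19.6% higher in hypothalamus, and after rescaling 28.5% and 33.7%. No class was tested against the others. Among 30 tested transcripts antisense to an exon, 20 (66.7%) were higher in adrenal gland and 6 in hypothalamus, and after rescaling these were 10 and 8 of 27. Among 50 that share a splice junction with a gene, 27 (54.0%) and 4 (8.0%) were called, and after rescaling 15 and 9 of 44. Among 80 with another exon overlap, 31 (38.8%) and 19 (23.8%) were called, and after rescaling 18 and 28 of 78. The 24 that matched a reference transcript gave 10 (41.7%) and 0 (limma, and also 0 at an unadjusted p below 0.05), and after rescaling 3 and 3 of 20. The 336 with no reference gene gave 174 (51.8%) and 73 (21.7%), and after rescaling 92 and 115 of 315.

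Some of these genes are known from neurons or from connective tissue, and the following were chosen after their values were seen. TCONS_00016026 overlaps Sez6, a gene of neuronal dendrites, and had 0.194 and 0.138 FPKM in adrenal gland, against 2.97 and 2.84 in hypothalamus (adjusted p = 0.00826). TCONS_00074421, antisense to the axon guidance receptor gene Plxna4a, was listed at 0 and had 0.153 in adrenal gland, against 1.60 and 1.44 in hypothalamus. TCONS_00095598 shares a splice junction with Scx, a transcription factor gene of tendon, and had 2.97 and 2.49 in adrenal gland, against 0.125 and 0.0379 in hypothalamus (adjusted p = 0.00826). TCONS_00073698 overlaps Reln, the gene of a secreted glycoprotein best known from the developing brain, yet it was the adrenal gland that was higher, at 8.09 and 5.59 against 1.45 and 0.521 in hypothalamus (adjusted p = 0.0132). In each of these the groups did not overlap. Fragments of the genes themselves may be included.

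Called loci lay next to each other in several places. Neighbouring tested loci within 1 Mb, all called in the same direction, formed runs of up to 7 loci. Over all 491 tested loci, 51.5% were called higher in adrenal gland and 21.8% higher in hypothalamus. Whether the runs were longer than these shares alone would give was not tested. The run of 7 lay on chromosome 9 (7319662 to 8104386), with sums of 63.1 and 50.1 FPKM in adrenal gland, against 12.4 and 11.7 in hypothalamus, and 4 of its calls held after rescaling. Of its loci, 5 share the interval of RGD1564665. A run of 4 on chromosome 7 (9865669 to 10645717), with transcripts at the zinc finger genes Zfp347 and Zfp709l1, had sums of 190.1 and 174.0 in adrenal gland, against 17.3 and 8.71 in hypothalamus, and all 4 calls held after rescaling. A run of 4 loci with no reference gene on chromosome 12 (44356283 to 44818259) had 21.4 and 20.9 in adrenal gland, against 2.93 and 1.14 in hypothalamus. Neighbouring loci can share a transcript that was assembled in pieces, which was not tested.

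The runs of 3 or more loci higher in hypothalamus lay on chromosome 1. The first (121986825 to 123481518) held 5 loci with no reference gene, with sums of 1.07 and 2.48 FPKM in adrenal gland, against 12.5 and 14.8 in hypothalamus. Its member TCONS_00009693, 6445 bases long, had 0.0118 and 0.634 in adrenal gland, against 3.67 and 4.35 in hypothalamus (log2 difference -3.84, SE 0.94, adjusted p = 0.0200; -4.44 rescaled), a call that was lost without adrenal gland column 1 or either hypothalamus column. Next to it TCONS_00009832, at rno-mir-344i, was listed at 0 in both adrenal gland columns and had 0.265 and 1.35 in hypothalamus, too low to test. A run of 3 followed at 123914615 to 123997923, with 0.901 and 4.22 in adrenal gland, against 13.1 and 14.7 in hypothalamus. A run of 4 at 201907284 to 202932227 had 3.81 and 10.1 in adrenal gland, against 47.6 and 50.6 in hypothalamus. All 12 calls in these runs held after rescaling, as did all 107 hypothalamus calls over the tested loci. Since rescaling moved the differences toward hypothalamus, such calls could hardly be lost by it. Chromosome 1 as a whole had 28 transcripts higher in adrenal gland and 25 higher in hypothalamus of 70 tested, and after rescaling 16 and 33 of 68. On chromosome 9 there were 25 and 2 of 42, and after rescaling 14 and 3 of 43. Over all chromosomes 50.4% and 19.6% were called, and after rescaling 28.5% and 33.7%, and neither chromosome was tested against the rest.

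**Figure D5:**
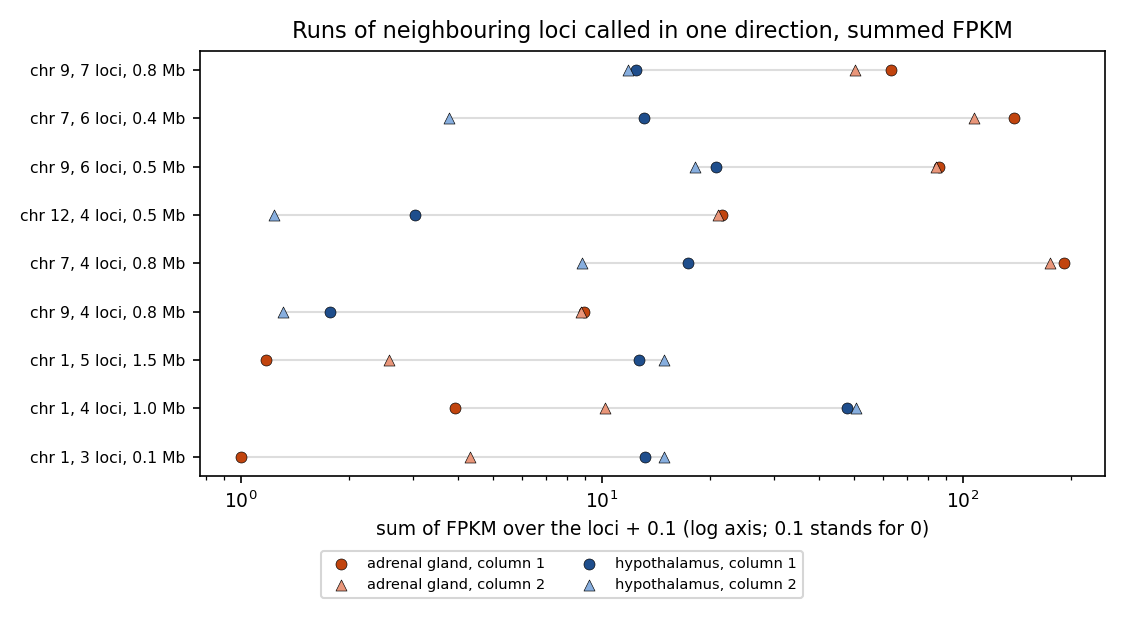
Sums of FPKM + 0.1 over the loci of 9 runs, all those of 4 or more loci and 1 of 3 loci on chromosome 1, on a log axis, in each of the 4 columns, with runs higher in adrenal gland above those higher in hypothalamus. In the 3 runs on chromosome 1, adrenal gland column 2 lies above column 1.

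Single loci could hold transcripts of both tissues. At a locus on chromosome 1 (132484515 to 132618088), TCONS_00002908 had 2.40 and 1.16 FPKM in adrenal gland and was listed at 0 in both hypothalamus columns (adjusted p = 0.0104). TCONS_00002918, from the same locus, had 0.153 and 0.0465 in adrenal gland, against 1.03 and 1.18 in hypothalamus (log2 difference -2.65, SE 0.57, adjusted p = 0.0155; -3.27 rescaled). The sum over the 17 transcripts of the locus was 8.06 and 4.58 in adrenal gland, against 3.66 and 3.60 in hypothalamus, and missed the threshold (adjusted p = 0.121). The second locus lies on chromosome 18 (4296286 to 4334646). There TCONS_00047811 had 3.38 and 3.35 in adrenal gland, against 1.39 and 0.403 in hypothalamus (2.0004, SE 0.59, adjusted p = 0.0341), while TCONS_00047813 had 1.51 and 1.15 in adrenal gland, against 5.80 and 6.25 in hypothalamus (-2.11, SE 0.32, adjusted p = 0.00967; -2.96 rescaled). The first call was lost after rescaling (1.18) and without any 1 column (1.22 to 2.78). Those of TCONS_00002918 and TCONS_00047813 were lost without adrenal gland column 1 or either hypothalamus column, and that of TCONS_00002908 without either hypothalamus column. Levels of transcripts of 1 locus depend on how shared fragments were divided.

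That division was uneven between columns in places. TCONS_00060851 had 4.51 and less than 0.001 FPKM in adrenal gland, against less than 0.001 and 2.01 in hypothalamus. TCONS_00060852, 3 bases longer and from the same locus on chromosome 2 (217483763 to 217492750), had the opposite pattern, with 0.0210 and 5.002 in adrenal gland against 2.86 and 0.000155 in hypothalamus. Neither passed the test. TCONS_00015815, at rno-mir-6326 on chromosome 10, had 3.39 FPKM and a listed 0 in adrenal gland, while TCONS_00015816 of the same locus had a listed 0 and 2.60. TCONS_00047625, which shares a splice junction with the peroxisomal gene Acbd5, had 2.86 and 0.00146 in adrenal gland, against 0.00182 and 0.738 in hypothalamus. In all, 16 tested transcripts reached FPKM 1 in a single adrenal gland column and lay below 0.05 in the other, and 14 did so in hypothalamus, and 8 and 9 of these lay at loci with several transcripts. TCONS_00113045, on chromosome X, had 8.29 and a listed 0 in adrenal gland, against a listed 0 and 1.34 in hypothalamus. The widest gaps in hypothalamus, beside TCONS_00060852, were at TCONS_00047815, TCONS_00113833, TCONS_00106166 and TCONS_00106381, with 3.15, 2.79 and 3.14 FPKM in column 2 for the first 3 and 2.78 in column 1 for the last, while the other column was at or near 0. None of them passed the test.

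The 3 most abundant transcripts were the same in both tissues. TCONS_00032703, which overlaps ENSRNOG00000049138 on chromosome 14, had 1256 and 1302 FPKM in adrenal gland, against 891 and 1335 in hypothalamus, with overlapping groups (adjusted p = 0.469). TCONS_00012467, a transcript of 11142 bases on chromosome 1 (228080092 to 228091758), had 1231 and 916 FPKM in adrenal gland, against 352 and 279 in hypothalamus, a log2 difference of 1.76 (SE 0.26, adjusted p = 0.00967), and of 0.86 rescaled. TCONS_00012465, from the same locus, had 181.3 and 201.5 in adrenal gland, against 22.7 and 21.0 in hypothalamus, a difference of 3.13 (SE 0.23, adjusted p = 0.00745; 2.23 rescaled). TCONS_00015674, on chromosome 10 (58888597 to 58890286), leaned to hypothalamus, with 292.7 and 219.6 in adrenal gland, against 518.6 and 731.3 in hypothalamus (-1.28, SE 0.29, adjusted p = 0.0166; -2.18 rescaled). The calls of TCONS_00012467 and TCONS_00015674 were lost without any 1 of the 4 columns, with differences of 1.55 to 1.97 and of -1.53 to -1.03, and that of TCONS_00012465 without adrenal gland column 1.

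A region of chromosome 6 held transcripts present in both tissues, some abundant and some near 1 FPKM. It was not part of the fixed naming rule and was chosen with earlier results of these data known. Of the 20 transcripts at least 5-fold above the 4 other tissues in both, some lay elsewhere, such as TCONS_00074680 on chromosome 4. In the interval of chromosome 6 from 142821642 to 143062780, 6 transcripts were tested. The interval holds the locus named for Mir666, Mir667 and rno-mir-679, of the Dlk1-Dio3 domain. On the deposited scale limma called 0 of them in either direction, and their lowest unadjusted p was 0.122, while 70.0% of all tested transcripts were called. TCONS_00090635, which overlaps ENSRNOG00000041744 (142821642 to 142853124), had 47.1 and 43.0 FPKM in adrenal gland, against 44.2 and 52.4 in hypothalamus, and its mean in any other tissue was at most 1.13. TCONS_00090674 had 24.5 and 19.9 in adrenal gland, against 14.8 and 17.7 in hypothalamus. TCONS_00090695, at rno-mir-679, had 0.895 and 1.30 in adrenal gland, against 1.19 and 1.24 in hypothalamus. The median log2 difference of the 6 was 0.16. After rescaling TCONS_00090635 was called higher in hypothalamus (-0.99, adjusted p = 0.0236, within a range of 0.0175 to 0.937 over all alternatives), so whether its level is equal depends on the scale.

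The transcripts with the smallest differences at FPKM 1 or more in all 4 columns showed the same dependence. TCONS_00101331, which shares a splice junction with ENSRNOG00000014846, had 7.84 and 6.29 FPKM in adrenal gland, against 8.41 and 6.30 in hypothalamus, a log2 difference of -0.05 (SE 0.31). TCONS_00077182, at the Golgi transport gene Golt1b, had 2.98 and 4.16 in adrenal gland, against 3.41 and 3.31 in hypothalamus, a difference of 0.06 (SE 0.33). TCONS_00006915, TCONS_00074680 and TCONS_00109314 had differences of 0.02, -0.04 and -0.06. Rescaled, the 5 lay between -0.94 and -0.81, and TCONS_00101331 and TCONS_00109314 were then called higher in hypothalamus.

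Levels in liver, cortex, outer medulla and left ventricle were set beside these calls. Of the 262 adrenal gland calls, 191 had their highest mean in adrenal gland among the 6 tissues, and 71 had a mean at least as high in another of them. In 106 the mean was below 20% of the adrenal gland level in each of these 4 tissues, and the median level in the highest of them was 43.2% of that in adrenal gland. Of the 102 hypothalamus calls, 88 had their highest mean in hypothalamus and 14 did not. In 67 the mean was below 20% of the hypothalamus level in each of the 4 tissues, and the median level in the highest of them was 5.9% of that in hypothalamus. The difference between the sets of calls was not tested.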

How the data were processed

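Per the labels' protocols, TRIzol was used to isolate total RNA and the Illumina TruSeq Stranded RNA LT kit for library construction. The genome build rn5 and bcl2fastq 2.15.0 are given per the submitters' processing notes. The deposited table held FPKM estimated by the authors for transcripts selected as lncRNAs, and per the file headers its columns are named as Cufflinks names them. The sources used here name no aligner, estimator, annotation or strand setting, and do not say if starts count from 0 or 1. Of 2458 transcripts, 3 had no values. Transcript length, another deposited value, is in bases.

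Transcripts whose mean FPKM reached 1 in either tissue were tested with limma 3.58.1 (R 4.3.3, mean-variance trend) on log2(FPKM + 0.1), using the 4 columns alone, with Benjamini-Hochberg adjustment at 0.05 over all of them. The added 0.1 understates changes of low transcripts. Loci were tested on sums. Tables were made with Python 3.11.15 and pandas 2.3.3. Depth came from the steps of low FPKM values at lone transcripts, with an assumed fragment of 140 bases, and 81.1 to 85.6% of those values lay within 0.15 of a whole fragment. On simulated data (520 transcripts) the test found 11.9% of changes that were 2-fold, 73.1% at 4-fold and 87.9% at 8-fold, and 5 of its 120 calls were false. The simulated noise was normal, independent between columns and drawn with the fitted spreads, and directions of change were random. It had no shift between columns, listed zeros or RNA of the other tissue. The false calls there are thus no estimate of those in the data.

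Named transcripts were the 10 largest called differences per direction without overlap, at most 1 per locus, then the 5 most abundant per tissue, loci with calls in both directions, tested members of the gene lists, the 5 smallest differences and the 5 widest column gaps per tissue. The transcripts and lists were chosen with earlier results of these data known, and microRNA names were added later. Alternatives were other pseudocounts, FPKM minimums and scalings, a 12-column fit, a block for column numbers, no trend, subtraction of the other tissue's share, no listed zeros, and each column left out.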

Additional observations from a re-analysis of the deposited data

How the results depend on the processing

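Calls are given as higher in adrenal gland and higher in hypothalamus, against 262 and 102 of 520 transcripts and 253 and 107 of 491 loci. Rescaling to the same median gave 138 and 163 transcripts and 155 and 153 loci, and the median ratio gave 124 and 181 transcripts and 144 and 160 loci. With 1 column left out, transcripts ran from 14 to 151 and from 1 to 98, and loci from 38 to 216 and from 6 to 104. An FPKM minimum of 0.5 gave 357 and 190 transcripts of 880. With no minimum, limma called 0 and 0 of 2158 transcripts, with 737 at an unadjusted p below 0.05. Columns that did not overlap numbered 202 and 218 after rescaling, 507 and 248 at a minimum of 0.5 and 812 and 431 with none, against 336 and 123. The column numbers pair the tissues in no label, and deviations of same-numbered columns correlated at -0.112 across transcripts. The replicate block gave 236 and 92 transcripts and 239 and 101 loci, and the crossed block, added after seeing the data, gave 249 and 105 transcripts and 236 and 105 loci. The other alternatives stayed within 1.5 times of both counts. The cause of these changes was not tested. With 2 columns per tissue of unstated origin, the counts depend on single columns, and low levels in adrenal gland are limited by its lower depth.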
